A study of Mus musculus with 2 samples.

Results

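The muscle LIM domain genes are 10 genes whose products carry LIM domains, small zinc-binding folds used to bind other proteins, and work at the sarcomere or in muscle nuclei. They were chosen by symbol as Fhl1, Fhl2, Fhl3, Csrp1, Csrp2, Csrp3, Pdlim3, Pdlim5, Pdlim7 and Ldb3, which are 10 of 43346 genes in the deposited tables and hold 43 of 103639 transcripts. RNA was measured in 2 libraries of skeletal muscle from mice of the B6NCrl strain at postnatal day 0, with no mutation or treatment in the labels. Each library began from 13 pg of total RNA, given in the labels as 1 cell-equivalent, and the labels describe the muscle as a portion of an organ from 1 pup. The 2 libraries form 1 group, as biological replicates 1 and 2, with separate biosample entries but 1 shared donor entry, so whether they come from the same pup is not clear. The sex was not collected. No conditions were compared, so the values below are levels with the spread over n = 2, and no p-value was computed.

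LIM proteins of striated muscle sit mainly at the Z-disc, the plate that ties actin filaments of neighbouring sarcomeres together, and several also enter the nucleus. Members of the Fhl family carry 4 complete LIM domains after a partial one, and Csrp proteins carry a pair of LIM domains with glycine-rich stretches. Pdlim proteins and the product of Ldb3 join an amino-terminal PDZ domain, which binds alpha-actinin at the Z-disc, to LIM domains at the other end. Pdlim5, Pdlim7 and Ldb3 belong to the enigma group, whose full-length proteins carry 3 LIM domains, whereas Pdlim3 belongs to the ALP group with 1. Shorter enigma-group forms that keep the PDZ domain and end before the LIM domains are known from striated muscle.

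The sequences below show what separates the forms that dominated these libraries. A LIM pattern was searched in the translated coding sequences as Cys and His residues at the spacing of the fold, and the first coding match of Csrp3-201, on the minus strand of chr7:48835565-48839505, and of Ldb3-205, on the minus strand of chr14:34542481-34543998, is printed as spliced coding DNA (GENCODE M21, GRCm38), with every Cys and His codon in capitals.
Csrp3-201: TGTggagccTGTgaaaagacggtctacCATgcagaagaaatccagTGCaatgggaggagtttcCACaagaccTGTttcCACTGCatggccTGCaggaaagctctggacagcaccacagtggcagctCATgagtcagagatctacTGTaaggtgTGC
Ldb3-205: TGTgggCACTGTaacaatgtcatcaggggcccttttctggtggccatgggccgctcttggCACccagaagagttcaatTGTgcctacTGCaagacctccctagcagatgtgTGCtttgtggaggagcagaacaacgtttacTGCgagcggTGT
The forms without LIM end elsewhere. The coding bases of the last coding exon of Ldb3-203 (minus strand, chr14:34561788-34561881), Pdlim5-203 (minus strand, chr3:142303331-142303421) and Pdlim7-202 (minus strand, chr13:55507030-55507123) follow, with the 39 bases that were the same in all 3 in capitals.
Ldb3-203: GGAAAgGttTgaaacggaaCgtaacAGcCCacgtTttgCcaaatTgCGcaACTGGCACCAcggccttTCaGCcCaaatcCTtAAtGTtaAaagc
Pdlim5-203: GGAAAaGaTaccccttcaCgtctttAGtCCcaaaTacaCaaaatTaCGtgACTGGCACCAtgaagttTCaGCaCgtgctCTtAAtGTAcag
Pdlim7-202: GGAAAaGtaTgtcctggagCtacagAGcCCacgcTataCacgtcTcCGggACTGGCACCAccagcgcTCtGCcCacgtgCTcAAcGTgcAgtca
These alternative ends resembled each other at the level of DNA. Identity was 61.1% between Ldb3-203 and Pdlim5-203, 58.5% between Ldb3-203 and Pdlim7-202, and 56.0% between Pdlim5-203 and Pdlim7-202.

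Depth was 32103374 expected counts for replicate 1 and 38977618 for replicate 2, spike-ins included. A gene was called detected in a library at 1 TPM, a length-adjusted abundance scaled to a fixed sum per library, and 5 expected counts, which 6350 genes reached in replicate 1 and 6949 in replicate 2. The labelled tissue was checked first: 8 of 8 skeletal muscle markers were detected in both libraries, and 0 of 7 heart markers in either, with a summed heart level of 0.18 TPM in replicate 1 and 0.17 TPM in replicate 2. Nppa, Tnni3, Gata4, Nkx2-5 and Tbx5 were at 0 in both libraries. Of the other cell types, fibroblast markers summed to 7371 TPM in replicate 1 and 5001 TPM in replicate 2, and endothelial markers to 522 and 259.0 TPM. In a piece of tissue, fewer cells of a type and less RNA per cell cannot be told apart.

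Of the 10 muscle LIM genes, 6 were detected in both libraries and 9 in at least 1. The background was 10% of all genes detected in both, or 48.7% of the genes detected in at least 1. Fhl1, Csrp3, Pdlim3, Pdlim5, Pdlim7 and Ldb3 formed the group found in both, and each stood at or above the 93.5 percentile of the detected genes of its library. Fhl3, Csrp1 and Csrp2 reached the threshold in replicate 1 only, and Fhl2 in neither. Together the 10 genes took 0.457% of all TPM in replicate 1 and 0.704% in replicate 2.

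**Figure D1:**
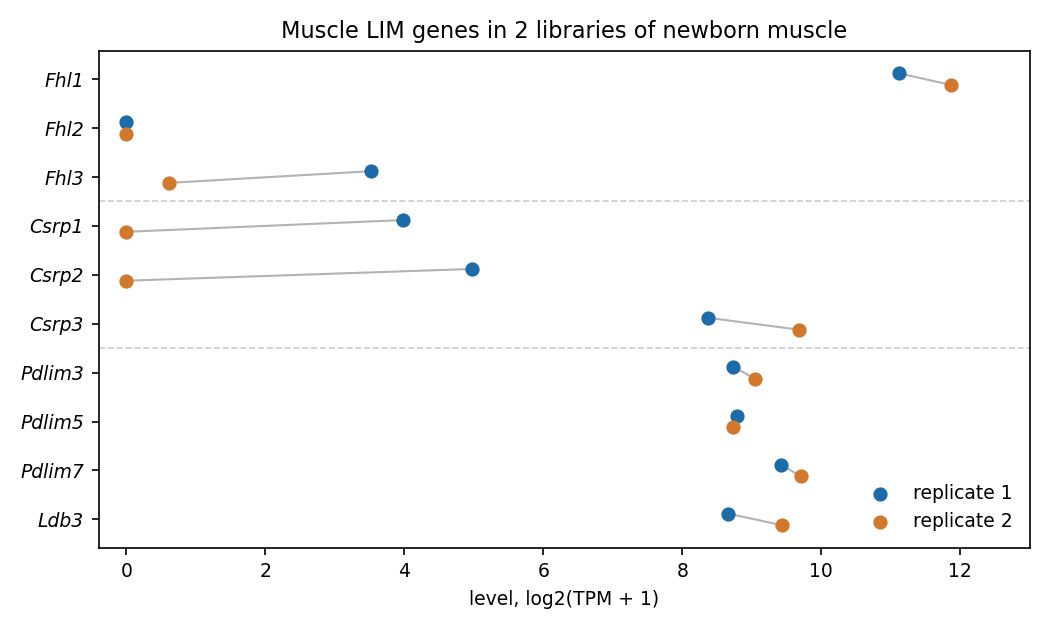
Level of each muscle LIM gene as log2(TPM + 1), with 1 point for replicate 1 and 1 for replicate 2 joined by a line, and dashed lines between the Fhl, Csrp and Pdlim groups. Fhl1 lies to the right of all others at 2228 and 3751 TPM, and 4 genes have at least 1 point near 0.

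The Fhl genes summed to 2239 TPM in replicate 1 and 3751 TPM in replicate 2 (2995 ± 1070, SD, n = 2), which was 49.0% and 53.3% of the TPM of all 10 genes. Fhl1, whose product is abundant in skeletal muscle and is mutated in human X-linked myopathies, accounted for nearly all of it. It had 2228 TPM from 115854 expected counts in replicate 1 and 3751 TPM from 246689 in replicate 2, so both libraries were high and replicate 2 was 1.68-fold above replicate 1. Fhl1 made up 99.5% of the Fhl sum in replicate 1 and 99.99% in replicate 2.

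Fhl2, best known as the heart member, had 0 expected counts in both libraries. A count of 0 allows up to 3 counts, which here is 0.122 TPM in replicate 1 and 0.0950 TPM in replicate 2, counting error only. Fhl3, which in muscle cells binds MyoD, had 10.5 TPM from 401 expected counts in replicate 1 (exact 95% Poisson interval 363 to 442 counts) and 0.53 TPM from 26 in replicate 2. Fhl3 was thus low in both libraries, and the replicate 2 value was under the detection threshold. The log2 ratio of Fhl1 to Fhl2 on the log2(TPM + 1) scale was 11.1 in replicate 1 and 11.9 in replicate 2, and that of Fhl1 to Fhl3 was 7.60 and 11.3; both means exceeded 2 SD.

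The Csrp genes summed to 376 TPM in replicate 1 and 817 TPM in replicate 2 (597 ± 312, SD, n = 2). Csrp3 codes muscle LIM protein, a Z-disc and nuclear protein that binds alpha-actinin and telethonin, and made up 88.0% and 100% of that sum. Its level was 331 TPM from 6445 expected counts in replicate 1 and 817 TPM from 20378 in replicate 2, 2.47-fold higher in replicate 2.

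Csrp1 and Csrp2, the relatives better known from smooth muscle, were seen in replicate 1 alone. Detection in 1 library alone was common, since only 48.7% of the 8943 genes detected in at least 1 library were detected in both. Csrp1 had 14.8 TPM from 623 expected counts in replicate 1 and 0 in replicate 2, where a count of 0 allows 0.0556 TPM, so it was at least 266-fold higher in replicate 1. Csrp2 had 30.4 TPM from 648 expected counts in replicate 1 and 0 in replicate 2, where 0.110 TPM is allowed, at least 277-fold higher in replicate 1. These bounds take 3 counts as the floor of the library at 0, and they describe these 2 libraries, not a condition.

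The 8 smooth muscle and mural markers summed to 459 TPM in replicate 1 and 791 TPM in replicate 2. Most of that sum was Acta2, and single markers went both ways. Of the 8 markers, 4 were detected in both libraries. Acta2, Smtn and Kcnj8 had 319, 56.6 and 19.0 TPM in replicate 1 and 487, 132 and 88.2 TPM in replicate 2. Myh11, Cnn1 and Tagln, which define contractile smooth muscle, had 0, 0 and 0.03 TPM in replicate 1 and 7.37, 20.97 and 23.3 TPM in replicate 2. Pdgfrb and Rgs5 were higher in replicate 1, with 11.5 and 53.0 TPM there and 0.63 and 31.6 TPM in replicate 2. All other markers of this list, Kcnj8 included, were higher in replicate 2. The part of cell makeup in the Csrp1 and Csrp2 values was not tested.

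The coded proteins of Csrp1-201 and Csrp2-201 were 79.8% identical, and their identity to that of Csrp3-201 was 65.8% for Csrp1-201 and 65.3% for Csrp2-201. Among the Fhl products, identity ran from 44.3% between Fhl1-204 and Fhl3-201 to 54.1% between Fhl2-201 and Fhl3-201. Csrp1 and Csrp2 were the closest pair by sequence among the pairs compared. Detection in replicate 1 alone was not particular to them, since Fhl3 also reached the threshold there only. A link between sequence and detection was not tested.

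Pdlim3, Pdlim5, Pdlim7 and Ldb3 summed to 1954 TPM in replicate 1 and 2474 TPM in replicate 2 (2214 ± 368, SD, n = 2), 42.8% and 35.1% of the TPM of all 10 genes. All were detected in both libraries and lay within a narrow range. Pdlim7, which codes enigma, was first at 686 TPM from 15109 expected counts in replicate 1 and 832 TPM from 24759 in replicate 2. Ldb3, which codes the Z-disc protein Cypher or ZASP, had 402 TPM from 29571 expected counts in replicate 1 and 691 TPM from 53666 in replicate 2.

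Pdlim3 codes actinin-associated LIM protein (ALP). Its level was 424 TPM from 15314 expected counts in replicate 1 and 525 TPM from 24272 in replicate 2. Pdlim5 codes enigma homolog (ENH), which binds protein kinase C through its LIM domains. Its level was 441 TPM from 20958 expected counts in replicate 1 and 425 TPM from 25787 in replicate 2, with a coefficient of variation of 2.61%, the smallest of the 6 genes detected in both. On the log2(TPM + 1) scale the ratio of Pdlim3 to Pdlim7 was -0.68 ± 0.02 and that of Pdlim5 to Pdlim7 -0.80 ± 0.23 (SD, n = 2), whereas the other 4 pairs among these genes stayed within 2 SD.

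Over all 12 pairs within subfamilies, 4 exceeded 2 SD, and 8 had the same sign in both libraries. The same shares over pairs of other genes were not computed, so these counts only describe the pairs. With n = 2 the rule also leaves out large gaps of unequal size, such as Csrp1 to Csrp3 at log2 ratios of -4.39 in replicate 1 and -9.68 in replicate 2. Ordered by mean TPM, the genes ran Fhl1, Pdlim7, Csrp3, Ldb3, Pdlim3, Pdlim5, Csrp2, Csrp1, Fhl3 and Fhl2. Among the 9 neighbours in that order, 1 pair differed by more than 2 SD, Fhl1 over Pdlim7, at a log2 ratio of 1.93 ± 0.33 (SD, n = 2). Csrp3, Ldb3, Pdlim3 and Pdlim5 therefore had no resolved order. Pdlim5 stood far above Csrp2 in both libraries, at log2 ratios of 3.82 in replicate 1 and 8.74 in replicate 2. That gap stayed within 2 SD because its size differed between the libraries.

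The spread between libraries was read against all genes. After centring on the median gene, 1 of the 6 genes detected in both, Csrp3, differed by more than 2-fold, against 44.8% of the 4356 genes detected in both and 24.7% of the 458 of them with a mean of at least 300 TPM. All 6 were higher in replicate 2 relative to the median gene, Pdlim5 barely so, and their median log2 ratio, replicate 1 over 2, was -0.60. The genes detected in both with a mean of at least 300 TPM were shifted the same way, with a median of -0.18 and an SD of 0.97. The centred log2 ratios were -0.82 for Fhl1, -1.37 for Csrp3, -0.38 for Pdlim3, -0.02 for Pdlim5, -0.35 for Pdlim7 and -0.85 for Ldb3. Without centring, 5 of 6 were higher in replicate 2 and Pdlim5 turned to 0.05, since the median gene itself stood at 0.07.

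The 8 skeletal muscle markers had a median centred log2 ratio of -0.43 and the fibroblast markers one of 0.27. Spike-ins, added in the preparation, took 5.205% of the expected counts in replicate 1 and 2.50% in replicate 2. The part of tissue makeup and of RNA input in the spread of the muscle LIM genes was not tested.

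**Figure D2:**
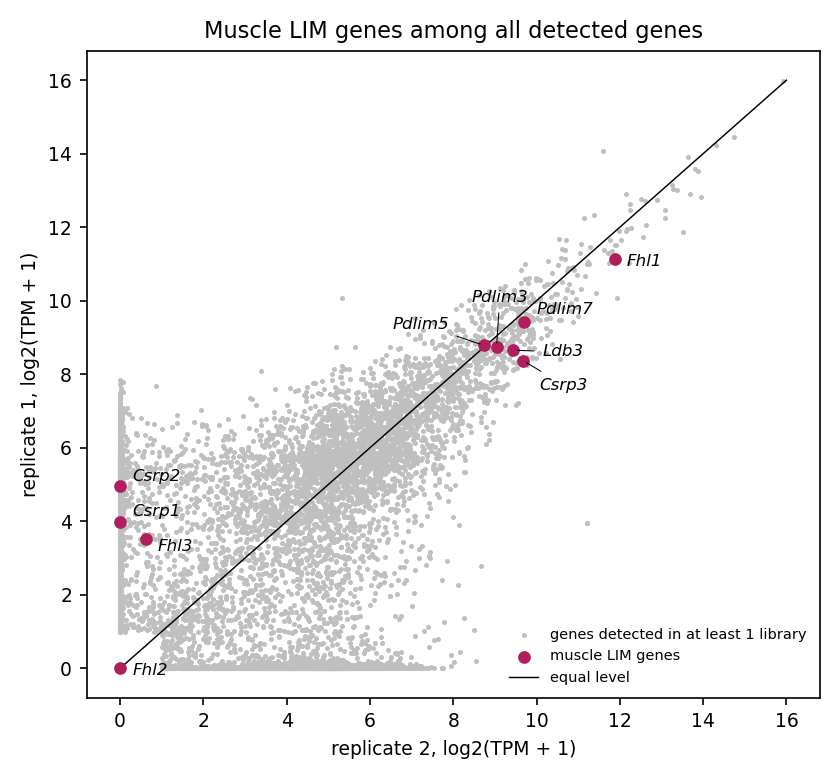
Level of every gene detected in at least 1 library (grey) and of the 10 muscle LIM genes (red), as log2(TPM + 1), with replicate 1 on the vertical axis, replicate 2 on the horizontal axis and a line of equal level. The 6 genes detected in both lie in the upper right, while Csrp1, Csrp2 and Fhl3 lie along the vertical axis and Fhl2 at 0.

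Transcripts of the Fhl1 gene, on the plus strand of chrX:56731787-56793346, were dominated by 1 form. Fhl1-204, which codes 296 residues with 4 matches to the LIM pattern, took 88.6% of the gene's TPM in replicate 1 and 89.7% in replicate 2 (89.1% ± 0.8, SD, n = 2). Fhl1-201, with 280 residues and 4 matches, took 5.90% and 3.33%. Forms with at least 1 match made up 99.4% of Fhl1 TPM in replicate 1 and 97.4% in replicate 2.

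Fhl1-202 codes 210 residues with 2 matches and took 4.48% in replicate 1 and 2.98% in replicate 2, which was 99.9 and 112 TPM. It is named here because it lacks the 187-base exon at chrX:56790464-56790650 that Fhl1-204 includes. That exon is printed with its in-frame Cys and His codons in capitals.
Fhl1-204: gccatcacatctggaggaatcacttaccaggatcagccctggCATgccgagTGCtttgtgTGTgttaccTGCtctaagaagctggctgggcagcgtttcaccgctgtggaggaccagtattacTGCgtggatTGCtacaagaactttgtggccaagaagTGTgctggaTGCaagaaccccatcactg
Skipping of an Fhl1 exon in mouse is known to give KyoT2, a form with fewer LIM domains and an end that binds the Notch pathway factor RBP-J. Whether Fhl1-202 makes that protein was not tested. Rbpj, which codes RBP-J, had 58.6 TPM in replicate 1 and 33.9 TPM in replicate 2.

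For the enigma-group genes, most of the TPM was assigned to transcripts that code no LIM pattern, a split that was noticed after the values had been seen. Over Pdlim5, Pdlim7 and Ldb3 together, forms with LIM made up 12.9% of TPM in replicate 1 and 13.2% in replicate 2, and complete coding forms without LIM 85.2% and 83.6%. By expected counts, which longer transcripts raise, forms with LIM held 33.5% and 31.8% of the 3 genes. The tables list no form without LIM for Csrp3 or Pdlim3, so their share could only be 100%. The pattern matched 73 of 22500 coding genes of GENCODE M21, 31 of 34 genes on a list of other LIM genes, and all 10 genes described here.

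Pdlim5, on the minus strand of chr3:142239590-142395696, had the lowest share of forms with LIM. Pdlim5-203, which codes 214 residues and no LIM match, took 99.96% of the gene's TPM in replicate 1 and 91.5% in replicate 2 (95.7% ± 6.0, SD, n = 2). A further form without LIM, Pdlim5-205 of 239 residues, was at 0% in replicate 1 and 8.18% in replicate 2. Pdlim5-201, the deposited form with LIM at 591 residues and 3 matches, received 1.09 expected counts in replicate 1 and 0 in replicate 2, against 20954 and 23679 for Pdlim5-203. The tables listed 5 Pdlim5 transcripts, of which 1 codes LIM, while M21 lists 13 with 5 that do, so reads of forms outside the deposited annotation were not separated.

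Pdlim7, on the minus strand of chr13:55495795-55513676, also favoured forms without LIM. Pdlim7-202, with 188 residues, made up 70.5% of the gene's TPM in replicate 1 and 78.3% in replicate 2. Pdlim7-203, with 222 residues, took 22.2% and 6.70%. Pdlim7-201, the full-length form of 457 residues with 3 LIM matches, took 2.44% and 6.99%, which was 16.8 and 58.2 TPM. The rest was spread over retained introns and minor forms.

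Ldb3, on the minus strand of chr14:34526603-34588682, had a mixture. Ldb3-203, with 327 residues and no LIM, made up 55.3% of the gene's TPM in replicate 1 and 71.1% in replicate 2 (63.2% ± 11.2, SD, n = 2). Ldb3-205, with 684 residues and 3 LIM matches, took 43.6% and 27.5%. In TPM, Ldb3-205 was alike in both libraries, at 175 in replicate 1 and 190 in replicate 2, while Ldb3-203 had 222 TPM in replicate 1 and 492 in replicate 2.

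TPM divides by length, and the Ldb3 forms differ in it, with 1623 bases for Ldb3-203 and 4954 for Ldb3-205 in the deposited tables. By expected counts, forms with LIM held 72.1% of the gene in replicate 1 and 56.4% in replicate 2, so that for Ldb3 the majority form depended on whether reads or length-adjusted abundance were used. For Pdlim7 the share with LIM by expected counts was 4.33% and 11.7%, and for Pdlim5 0.0052% and 0%. The effect of uneven coverage along the transcripts, which amplified full-length cDNA can have, was not tested.

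Ldb3 forms also differ in the middle of the protein, where a single 359-base exon at chr14:34576986-34577344 alternates with 3 exons of 23, 204 and 15 bases. The first choice is known from the cardiac forms of Cypher and the second from the skeletal ones. Transcripts with the single exon took 56.4% of Ldb3 TPM in replicate 1 and 71.3% in replicate 2. Those with any of the 3 exons took 43.6% and 28.7%. By expected counts the majority turned, with 29.7% and 44.05% on transcripts with the single exon and 70.3% and 55.95% on those with any of the 3. Every deposited form with any of the 3 exons also codes LIM, so on that side exon choice and LIM end are tied by the annotation. Ldb3-203 is the only form without LIM among the 5 deposited Ldb3 transcripts. M21 lists 8 with 5 that code LIM, so reads of forms outside the deposited annotation were not separated. Ldb3-201 and Ldb3-202 join the single exon to LIM, at 0 and 4.52 TPM in replicate 1 and 0.03 and 1.53 TPM in replicate 2. Heart markers were at or near 0 in both libraries, as given above.

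**Figure D3:**
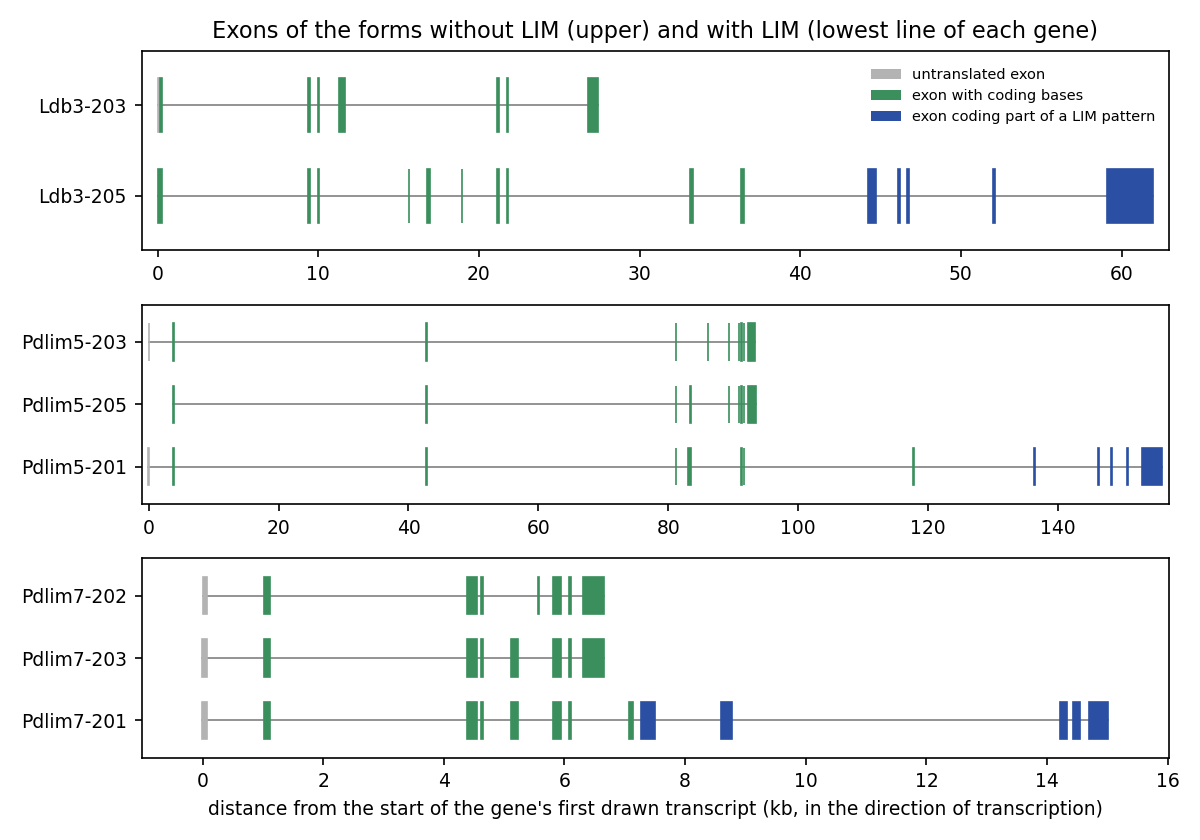
Exons of transcripts of Ldb3, Pdlim5 and Pdlim7, drawn to scale as distance in kb from the start of the first drawn transcript of the gene, with untranslated exons in grey, exons with coding bases in green and exons that code part of a LIM pattern in blue. In each gene the forms without LIM end before the first blue exon, which only the lowest transcript reaches.

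The forms without LIM lacked more than an exact match to the pattern. Ldb3-203, Pdlim5-203, Pdlim5-205, Pdlim7-202 and Pdlim7-203 coded 0 Cys-x-x-Cys pairs, the first element of every LIM domain, whereas Ldb3-205, Pdlim5-201 and Pdlim7-201 coded 9 each. Their alternative ends are those printed above, which share 39 bases. Over aligned residues only, gaps left out, the coded proteins of Pdlim5-203 and Pdlim7-202 were 59.4% identical. Those of Pdlim7-202 and Ldb3-203 were 54.5% identical over 187 aligned residues, and those of Pdlim5-203 and Ldb3-203 45.5% over 213. Ldb3-203 codes 327 residues, so part of it was not compared.

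**Figure D4:**
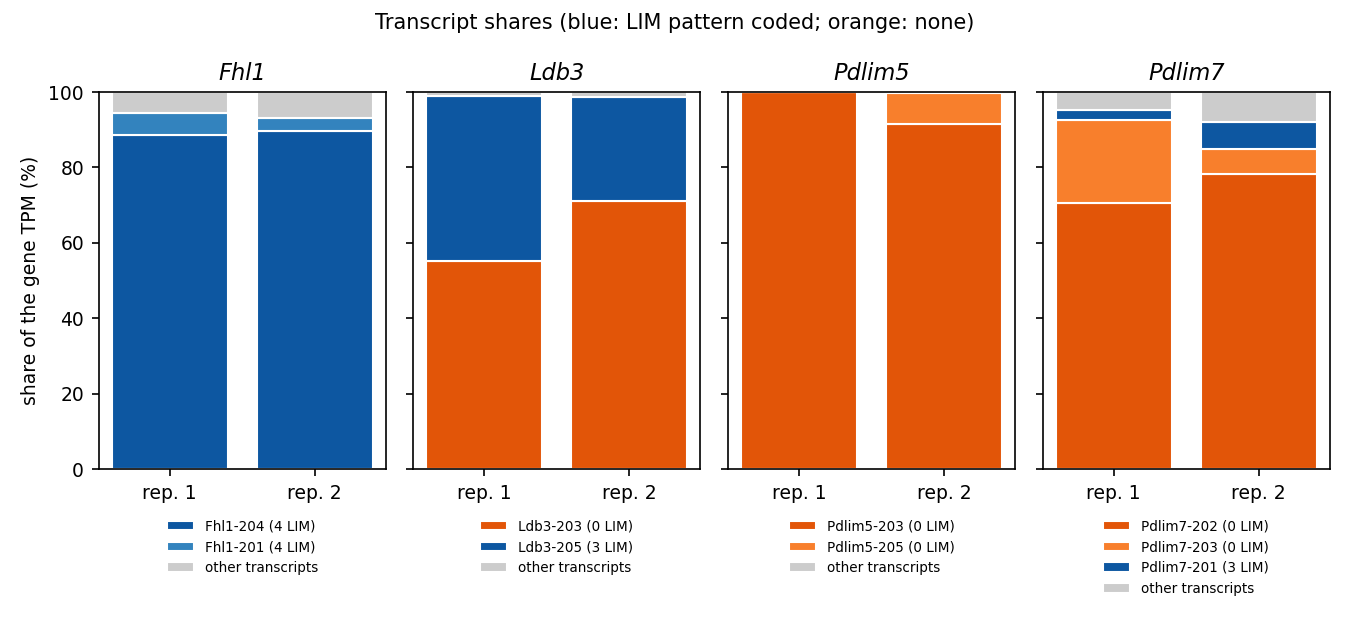
Share of each gene's TPM by transcript in replicate 1 and replicate 2 for Fhl1, Ldb3, Pdlim5 and Pdlim7, with transcripts that code a LIM pattern in blue, those that code none in orange and transcripts under 5% in both libraries in grey. Fhl1 is nearly all blue, Pdlim5 orange, Pdlim7 mostly orange, and Ldb3 is divided at 55.3% and 71.1% orange.

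Summed over all 10 genes, forms with LIM made up 70.5% of TPM in replicate 1 and 74.6% in replicate 2. That came mainly from Fhl1, with 2214 and 3652 TPM of forms with LIM, followed by Csrp3 at 331 and 817 and Pdlim3 at 424 and 525. Ldb3 added 179.96 and 199.57 TPM, Pdlim7 16.8 and 58.2, and Pdlim5 0.01 and 0. Within the enigma group, transcripts without LIM reached 1333 TPM in replicate 1 and 1691 TPM in replicate 2.

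**Figure D5:**
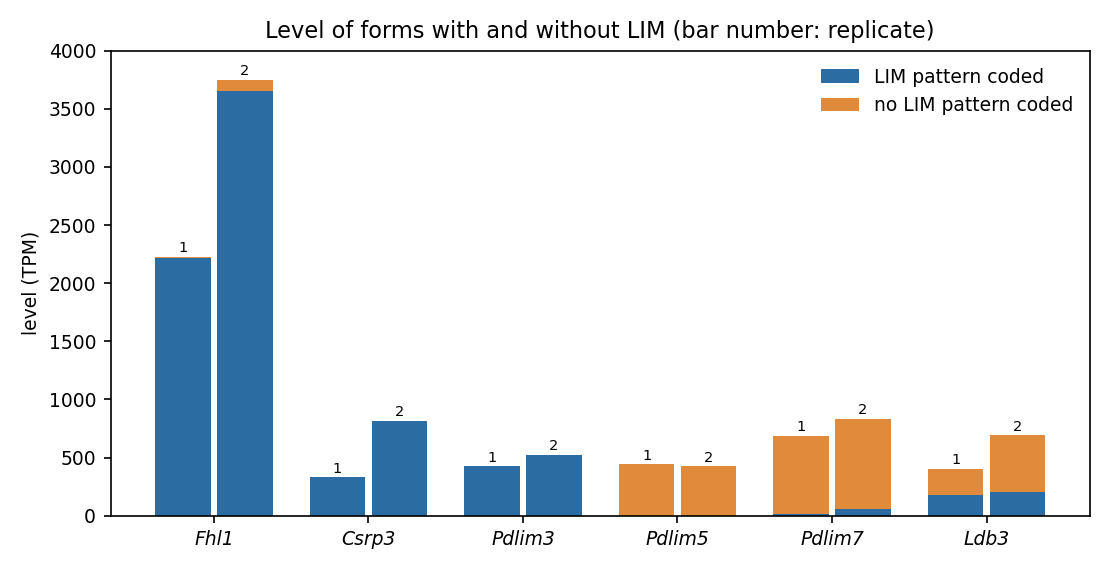
TPM of the 6 genes detected in both libraries, with 1 bar for each replicate, split into transcripts that code a LIM pattern (blue) and transcripts that do not (orange). Pdlim5 and Pdlim7 are almost wholly orange, with 0.01 and 16.8 TPM of forms with LIM in replicate 1 and 0 and 58.2 TPM in replicate 2.

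Of the remaining genes, Fhl2 had 0 expected counts and no leading form, and each of the others had a single leading or sole form. Csrp3-201 took 100% in replicate 1 and 99.8% in replicate 2, and Pdlim3-201, the sole Pdlim3 transcript in the tables, had 100% in both. Csrp1-201 and Csrp2-201 held all of their genes' reads in replicate 1, as did Fhl3-201 in both libraries. Csrp2-201 is the sole Csrp2 transcript in the tables, so its share could only be 100%.

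Among 34 other LIM genes, 17 were detected in both libraries and 10 in neither, with a summed level of 2326 TPM in replicate 1 and 1888 TPM in replicate 2. The 10 muscle LIM genes summed to 4569 and 7042 TPM. Of those 17 genes, 11 differed by more than 2-fold after centring, against 44.8% of all genes detected in both. The highest were Lmcd1, which codes a GATA6-binding cofactor, at 295 TPM in replicate 1 and 528 TPM in replicate 2, and Crip1, a small LIM protein, at 355 and 360 TPM.

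Crip2 had 340 TPM in replicate 1 and 76.8 TPM in replicate 2, and zyxin (Zyx), a focal adhesion protein, had 238 and 66.4 TPM. Both stood higher in replicate 1. Pdlim1, the ALP-group relative of Pdlim3, had 166 and 236 TPM, and Limch1 had 187 and 107 TPM.

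Of 31 partner genes, which code Z-disc, costamere and nuclear proteins that bind LIM proteins or lie near them, 22 were detected in both libraries. Of those 22, 5 differed by more than 2-fold after centring. The background was 44.8% of all genes detected in both, and 24.7% of those with a mean of at least 300 TPM. The 31 partner genes summed to 9911 TPM in replicate 1 and 11561 TPM in replicate 2, and the 22 had a median centred log2 ratio of -0.46. Alpha-actinin-2 (Actn2), the Z-disc anchor of the PDZ proteins, had 1916 TPM in replicate 1 and 1823 TPM in replicate 2. Myozenin 1 (Myoz1) had 1799 and 1688 TPM, and both genes were thus above every muscle LIM gene except Fhl1.

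Nebulin (Neb), which lines the thin filament, had 1648 TPM in replicate 1 and 2305 TPM in replicate 2, and titin (Ttn), the elastic filament anchored in the Z-disc, had 715 and 959 TPM. Myotilin (Myot) stood at 717 and 752 TPM and myozenin 2 (Myoz2) at 546 and 758 TPM, close to Pdlim7 and Ldb3. Telethonin (Tcap), the partner of Csrp3, had 403 TPM in replicate 1 and 479 TPM in replicate 2. Myod1, which codes the MyoD bound by Fhl3, had 2.31 TPM in replicate 1 and 17.2 TPM in replicate 2, where Fhl3 was at 10.5 and 0.53 TPM.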

How the data were processed

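The labels name the mirVana kit for extraction, a SmartSeq protocol, spike-ins and a size selection. The authors deposited gene and transcript tables with expected counts (estimated reads, not normalized) and TPM scaled over all rows, with posterior means, per the file headers in the layout of RSEM. Shares given as percent of isoform were deposited by the authors too, and transcript shares here were recomputed from TPM. Reads were assigned to mm10 with GENCODE M4, per the descriptions deposited with the files. The aligner and the use of strand are not given in the sources at hand.

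Symbols, coordinates and coding sequences came from GENCODE M21 on GRCm38, matched by identifier without version. All 43 transcripts of these genes matched, 31 with the same length. The 12 of another length include all Ldb3 transcripts and Pdlim5-203. Ldb3-203 has 1623 bases as deposited and 1586 in M21, and Pdlim5-203 has 2046 and 1722. Residue counts, LIM matches and exon maps are those of M21. Of 65 transcripts of these genes in M21, those beyond the 43 were not in the tables. The LIM pattern was C-x2-C, 15 to 24 residues, H-x2-[CEDH]-x2-C-x2-C, 14 to 22 residues, C-x2-[CHD]; transcripts without a coding sequence counted as without LIM. Genes that overlap these (Gm23258, Gm8210 and Mir6945) held 0 counts.

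Ratios are log2(TPM + 1) of replicate 1 over replicate 2, centred on the median gene detected in both. A pair of genes was past 2 SD where both libraries had the same sign and the mean exceeded 2 SD. With 2 libraries of 1 group there was no test, and the spread may be between animals (if the pups differ), tissue portions or libraries, which cannot be told apart. There are no molecular identifiers, so intervals and floors cover counting error only. The members and gene lists were chosen with earlier results of these data known. Named genes are all members, and the 6 with the highest mean TPM of the other LIM list and of the partner list. Named transcripts are those of Fhl1, Ldb3 and Pdlim5 at 10% or more, and the leading transcript of the others. Fhl1-201, Fhl1-202, Pdlim5-201, Pdlim5-205, Pdlim7-201, Pdlim7-203, Ldb3-201, Ldb3-202, Rbpj, Tcap and Myod1 were added after their values were seen. Cell type markers come from lists of their own. Analysis used Python 3.11.15, pandas 2.3.3, Biopython 1.88, and edgeR 4.0.16 for TMM factors on counts rounded to whole numbers.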

Additional observations from a re-analysis of the deposited data

How the results depend on the processing

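The number of genes detected in both libraries stayed at 6 under 3 other thresholds and was 7 with 1 expected count and no TPM minimum, where Fhl3 was added. The count past 2-fold between libraries was 1 under 5 alternatives, 5 when centred on the spike-ins (Fhl1, Csrp3, Pdlim3, Pdlim7 and Ldb3) and 4 of 10 genes with no filter on low values (Fhl3, Csrp1, Csrp2 and Csrp3). Over all genes, 56.2% of the 4356 detected in both passed when centred on the spike-ins. With no filter, 14.8% of 43346 genes did, most of these genes being low or at 0. Spike-in centring shifts every ratio, since the median spike-in stood at a log2 ratio of 0.98. The count of pairs past 2 SD was 4 under each of 3 alternatives, but the pairs were not the same throughout. By expected counts, Pdlim3 stood above Pdlim7 in replicate 1 (15314 and 15109) and below it in replicate 2 (24272 and 24759). Pdlim5 stood above Pdlim7 in both libraries, opposite to TPM, so neither of these pairs kept its TPM result. Expected counts as CPM (scaled by the library total), which are not divided by length, gave a mean of 5156 for the Fhl sum, 395 for the Csrp sum and 3020 for the Pdlim and Ldb3 sum. Shares from expected counts gave 91.9% for Fhl1-204, 35.8% for Ldb3-203, 64.2% for Ldb3 forms with LIM 8.03% for Pdlim7 forms with LIM, 36.9% for the Ldb3 single exon and 32.6% for forms with LIM of the 3 genes together, and posterior mean TPM gave 0.0035% for Pdlim5 forms with LIM; the alternatives on forms with LIM and on the exon were chosen after seeing the data. Leaving out either replicate leaves the value of the other: 2239 to 3751 TPM for Fhl, 376 to 817 for Csrp and 1954 to 2474 for Pdlim and Ldb3. Leading shares then ran from 88.6% to 89.7% for Fhl1, 55.3% to 71.1% for Ldb3 and 91.5% to 99.96% for Pdlim5. Forms with LIM ran from 28.9% to 44.7% for Ldb3, 0% to 0.0023% for Pdlim5 2.44% to 6.99% for Pdlim7 and 12.9% to 13.2% for the 3 together, and the Ldb3 single exon from 56.4% to 71.3%. Each of these lies within 1 SD of the mean by construction with 2 libraries, so they show range, not stability. With both libraries kept, 18 of 20 alternatives on single gene levels stayed within 1 SD, and the exceptions were Fhl2 at 0.20 TPM by posterior means and Pdlim5 at 466 TPM without spike-ins. No paired analysis was possible because there is 1 group. At 13 pg per library, genes at 0 are not shown to be absent.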

Other observations

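Beyond the genes above, 6 of the 34 other LIM genes were at 0 in both libraries: Fhl4, Crip3, Lims2, Trip6, Lpxn and Tes. Tgfb1i1 had 131 TPM in replicate 1 and 0 in replicate 2. Nrap, a LIM protein of forming myofibrils, had 27.3 TPM in replicate 1 and 115 TPM in replicate 2. Among the partner genes, fast-fibre alpha-actinin-3 (Actn3) had 221 TPM in replicate 1 and 509 TPM in replicate 2, while the non-muscle Actn4 had 166 and 41.9 TPM. These genes were chosen after their values were seen.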
